A study of Mus musculus with 15 samples.

Results

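The genes that copy DNA in S phase were followed across resting T cells, activated T cells and T cell lymphomas of the mouse. The set is a fixed list of 40 genes, chosen by name with earlier results of these data known, so its shares are not an independent check. It holds origin loading factors, the MCM helicase and its activators, primase and DNA polymerases, and the sliding clamp and its loader. The RPA single-strand binding proteins, the enzymes that finish the new strands, those that supply nucleotides, and a chromatin assembly factor complete it. Of the 40 genes, 39 were measured on the array by a probe set of 1 gene symbol, and Chaf1a was not analysed here. All 39 were among the 11902 genes, of 18193 measured, that passed a filter on low signals (at least 100 in at least 3 arrays). Orc1 and Tyms passed it only through the lymphomas, with 2 and 0 normal arrays at 100 or more, so their higher values there are partly a condition of being tested; the other 37 passed on normal arrays alone.

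The study holds 15 samples with 1 oligonucleotide array each. Resting T cells (3 samples) and T cells activated in vitro (3 samples) came from p53 KO mice of the C57Bl/6 background aged 5 weeks, and the sort was from liver or spleen, with no organ given per sample. The growth protocol attached to them names injections of PBS or heat-killed Streptococcus pneumoniae, and neither the donors' own treatment nor the agent and length of the activation is given in the sources used here. The 9 lymphomas, mPTCL 1 to mPTCL 9, are peripheral T cell lymphomas of C57BL/6 mice, sorted from the liver of CD3KO hosts that had been injected with p53KO T cells; the age of these mice is not given. CD3-deficient hosts lack T cells of their own and keep B cells, NK cells and myeloid cells. The normal T cells and the T cells injected into the hosts were p53 KO, so no comparison shows what the loss of p53 does. Any host cells in the lymphoma samples need not share that loss. The labels do not say that replicates came from separate animals, so p-values measure the spread between these samples, which may be partly technical.

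A cell copies its genome once per cycle. The origin recognition complex, Cdc6 and Cdt1 load the ring of MCM2 to MCM7 onto DNA in G1, geminin (Gmnn) blocks reloading in S phase, and Cdc45 with the GINS complex turns the loaded ring into the working helicase. Primase with polymerase alpha starts each strand, the loader RFC places the clamp PCNA, and polymerases delta and epsilon extend. Resting T cells lie outside the cycle in G0, where the MCM ring is not loaded, and antigen receptor stimulation brings them into it. Many of these genes are known targets of E2F transcription factors, which Rb holds in check in resting cells.

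Letters of the E2F type were looked for in the promoters of the members. RefSeq (GRCm38.p6) gave a promoter window, from 250 bases before to 50 bases after the start of the gene, for 33 of the 40 genes. The letters TTTCGCGC, TTTGGCGC or TTTCCCGC, on either strand, were found in 13 of the 33 windows (39.39%) and in 573 of the windows of 27025 genes (2.12%). The 13 genes are Orc1, Cdc6, Cdt1, Mcm3, Mcm5, Mcm6, Mcm7, Gins3, Pola1, Pold1, Pole2, Rfc3 and Lig1. The letters CCAAT were in 19 of the 33 windows (57.58%) and in 41.06% of all genes' windows. The median G and C content was 60.0% in the members' windows and 52.8% in all. These E2F-type motifs are rich in G and C, and the shares were not adjusted for that difference. Printed next are the 180 bases before the start of 5 members that reappear in the results, 5′ to 3′ on the gene's strand, with the E2F-type matches in capitals.
Mcm5, chr8:75109329-75109508, plus strand: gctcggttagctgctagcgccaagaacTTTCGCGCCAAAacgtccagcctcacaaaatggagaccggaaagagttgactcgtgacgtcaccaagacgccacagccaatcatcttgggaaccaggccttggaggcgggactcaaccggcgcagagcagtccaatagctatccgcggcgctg
Mcm6, chr1:128359706-128359885, minus strand: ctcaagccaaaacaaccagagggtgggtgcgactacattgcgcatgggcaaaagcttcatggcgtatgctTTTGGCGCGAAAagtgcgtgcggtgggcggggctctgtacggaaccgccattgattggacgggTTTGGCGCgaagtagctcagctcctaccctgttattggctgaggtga
Orc1, chr4:108579274-108579453, plus strand: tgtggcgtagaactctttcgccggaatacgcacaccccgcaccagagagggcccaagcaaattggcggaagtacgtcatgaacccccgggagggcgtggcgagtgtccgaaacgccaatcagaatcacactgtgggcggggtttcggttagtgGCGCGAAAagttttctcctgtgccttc
Cdc6, chr11:98907971-98908150, plus strand: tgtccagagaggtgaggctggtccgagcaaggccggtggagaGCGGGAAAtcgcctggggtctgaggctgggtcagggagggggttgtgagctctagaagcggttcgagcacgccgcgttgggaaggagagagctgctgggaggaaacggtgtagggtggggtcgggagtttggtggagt
Rfc3, chr5:151651209-151651388, minus strand: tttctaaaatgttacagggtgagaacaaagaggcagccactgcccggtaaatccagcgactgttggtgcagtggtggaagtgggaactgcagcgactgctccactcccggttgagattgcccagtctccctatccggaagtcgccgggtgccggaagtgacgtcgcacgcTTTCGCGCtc
In Mcm5 and in the first run of capitals of Mcm6, 2 matches on opposite strands overlap. A match is a stretch of letters, not a measured binding site. Members with a match include Cdc6 and Pola1, which were called in both comparisons with resting cells, and Pole2 and Gins3, which were called in none.

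All values given here are log2 of the deposited signal after signals below 32 were raised to 32, so that 5 is the floor, and each gene is read by its brightest probe set. A change is a difference of group means on that log2 scale, with its standard error. A gene was called when limma's Benjamini-Hochberg adjusted p over the 11902 genes was under 0.05 and the change reached 2-fold. All arrays had been scaled to a trimmed mean of 500, so a rise of all RNA per cell would not be seen. Arrays of the same group correlated at 0.968 to 0.976 in resting cells, 0.970 to 0.974 in activated cells and 0.761 to 0.924 in lymphomas. Members had a median SD of 0.25, 0.19 and 0.72 in that order. The actin control probe sets of the 3′ and 5′ ends, whose ratio bears on RNA integrity, gave mean ratios of 1.35, 1.52 and 1.93 (SD 0.13, 0.03 and 0.40), and the Gapdh control ordered the groups otherwise, at 2.02, 1.31 and 1.85 (SD 0.18, 0.05 and 0.30). An Expression Console version is stated for the lymphomas only, and any difference in handling that goes with it cannot be told apart from the lymphoma state.

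Markers of other cells differed between the normal groups and between the lymphomas. Macrophage markers averaged 7.13 to 7.88 in resting and 5.69 to 5.82 in activated samples, with 6 of 10 tested called lower on activation, and 4 of 7 endothelium and stroma markers were called higher, from means of 6.16 to 6.19 to means of 7.24 to 7.65; their part in the activation results was not tested. The mean of 8 T cell markers was 12.76 to 13.10 in the 6 normal samples and 8.58 to 11.59 in lymphomas; Cd3e, a CD3 chain that defines T cells, was at 5.68 in mPTCL 3 and at the floor in mPTCL 4, against 9.03 or more in the other lymphomas. The mean of 10 neutrophil markers was 5.63 to 5.94 in normal samples and reached 9.81 to 12.11 in mPTCL 1, 2, 4, 5 and 8 and 8.26 in mPTCL 9. Macrophage markers (11 genes) were highest in mPTCL 4, 5 and 1 (10.80, 9.47 and 9.07, against 5.69 to 7.88 in normal samples), and B cell markers (8 genes) in mPTCL 5 and 1 (12.32 and 10.81, against 6.77 to 8.64). In bulk RNA, fewer cells of a type and less RNA per cell cannot be told apart.

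**Figure D1:**
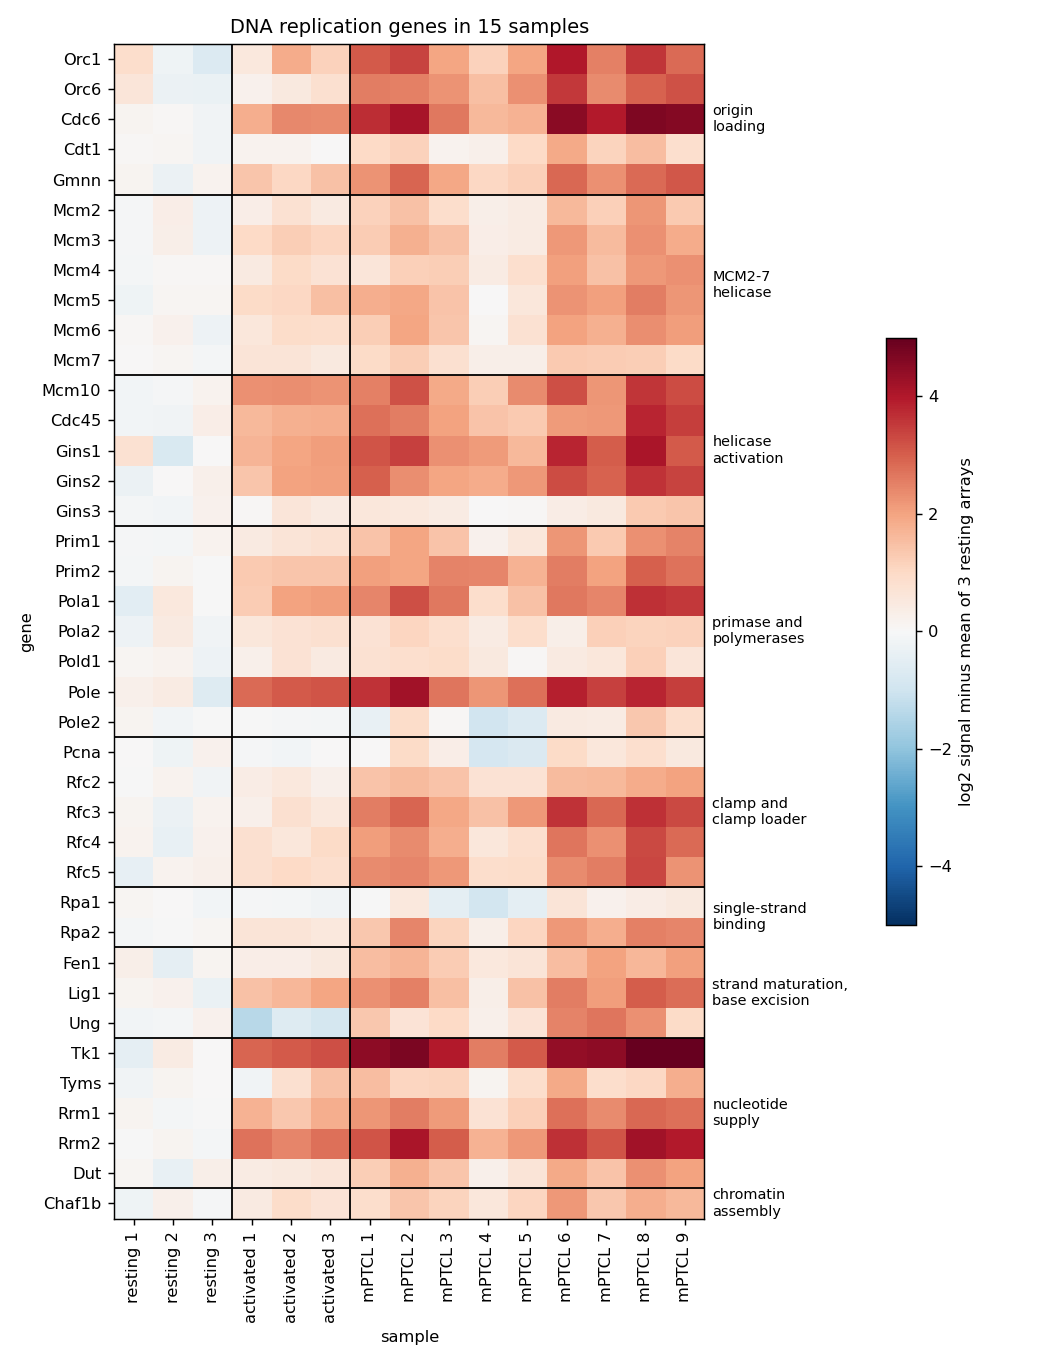
Difference of each of the 39 members (rows, grouped by role) from its mean in the 3 resting samples, on the log2 scale (colour), in each of the 15 samples (columns). The lymphoma columns are mostly redder than the activated ones, and mPTCL 4 is the palest lymphoma column.

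Of the 39 replication genes, 15 rose on activation, 30 rose in lymphomas against resting cells and 5 in lymphomas against activated cells. None was called lower. Activated against resting cells, 15 of 39 members were called higher (38.5%) and 0 lower. Of all genes, 8.45% were called higher and 4.23% lower (12.7% in either direction). Without the 2-fold condition, limma's adjusted p alone called 23 members higher and 1, Ung, lower, against 15.4% and 15.5% of all genes. At an unadjusted p under 0.05 the count of members in both directions was 29. The share of all genes under that p was not counted in any comparison, so such counts have no background. Every activated sample lay above every resting one in 29 members, against 23.3% of all genes. Lymphomas against resting cells, 30 were called higher (76.9%) and 0 lower, where 7.03% of all genes were called higher and 6.84% lower (13.9% in either direction), and 35 members in either direction had an unadjusted p under 0.05. Without Orc1 and Tyms, 28 of 37 were called higher in that comparison, a count that still holds Cdc6, Gins1 and Tk1. All 9 lymphomas lay above all 3 resting samples in 28 members, against 8.36% of genes. Lymphomas against activated cells, 5 members were called higher and 0 lower, against 7.04% and 8.28% of all genes (15.3% in either direction), so this share (12.8%) was not far from the background; 17 members had an unadjusted p under 0.05. All 39 were on average higher in lymphomas than in activated cells, and 6 did not overlap, against 9.78% of genes.

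The median member change was 0.71 for activation, 1.65 for lymphomas against resting cells and 0.71 for lymphomas against activated cells, where the median of all genes was 0.02, -0.02 and -0.08. The comparisons share the resting, activated or lymphoma arrays pairwise, so their changes are not independent of each other. The activation count was 13 to 16 when any 1 array was left out, where 7.01% to 8.41% of all genes were called higher. Mcm5 and Gins1 lost their call without activated replicate 3 and Mcm3 without resting replicate 3. The count in lymphomas against activated cells was 13 without mPTCL 4 and 11 without mPTCL 5, where 8.14% and 8.39% of all genes were called higher. It was 3 without mPTCL 9 (7.03% of all genes) or without any one of the activated samples (3.89% to 4.02%), and Fen1 and Rfc2 lost their call there. Lymphomas against resting cells gave 19 members without resting replicate 3 and 20 without either other resting sample, where the share of all genes called higher also fell, from 7.03% to 3.78% to 3.97%. Without mPTCL 4 the count was 33, against 7.61% of all genes.

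**Figure D2:**
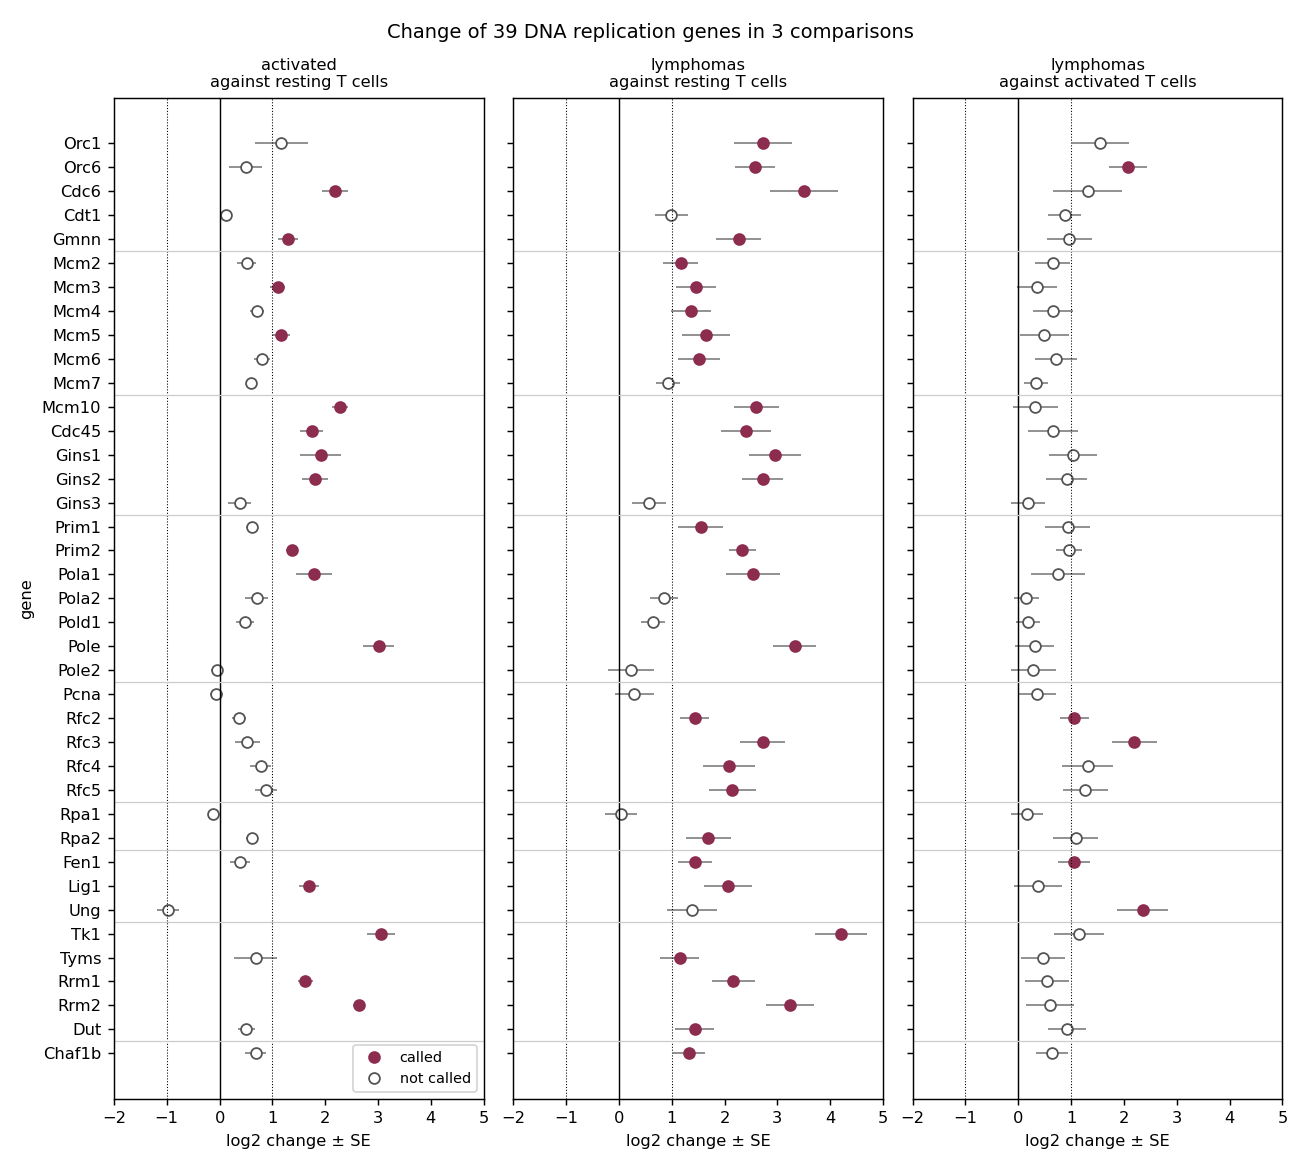
Log2 change and its standard error (bars) for each of the 39 members in the 3 comparisons, with filled symbols for called genes. The dotted lines mark 2-fold. Activation calls lie mainly among helicase activation, polymerase and nucleotide supply genes, and the calls between lymphomas and activated cells are Orc6, Rfc2, Rfc3, Fen1 and Ung.

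Among the origin loading genes, Cdc6, which brings the MCM ring to the origin recognition complex, had the largest changes against resting cells. Cdc6 stood at 6.87, 6.77 and 6.53 in the 3 resting samples and at 8.52, 9.12 and 9.09 in the 3 activated ones, and ran from 8.36 through a median of 10.68 to 11.38 in the 9 lymphomas. All activated and all lymphoma samples lay above the resting ones. mPTCL 4 and mPTCL 5 (8.36 and 8.46) lay just below the activated samples, and the other lymphomas lay above all of them. Cdc6 rose by 2.19 ± 0.24 (adjusted p = 0.00143) on activation and by 3.50 ± 0.65 (adjusted p = 0.00321) in lymphomas against resting cells, 11.3-fold. The activated and lymphoma means differed by 1.31 ± 0.65, which did not pass (adjusted p = 0.165). Gmnn, the inhibitor of reloading, rose by 1.30 ± 0.19 (adjusted p = 0.00359) on activation and by 2.26 ± 0.43 (adjusted p = 0.00352) in lymphomas against resting cells.

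Orc6, a subunit of the origin recognition complex, was called in both lymphoma comparisons. Orc6 stood at 8.55, 7.67 and 7.62 in the 3 resting samples and at 8.15, 8.42 and 8.76 in the 3 activated ones, and ran from 9.44 through a median of 10.46 to 11.49 in the 9 lymphomas. Every lymphoma lay above all 6 normal samples, and the normal groups overlapped. The change was 2.57 ± 0.37 (adjusted p = 0.000719) against resting cells and 2.08 ± 0.36 (adjusted p = 0.00223) against activated cells, and 0.50 ± 0.31 (adjusted p = 0.277) between the 2 normal states did not pass. Orc1, the largest subunit of that complex, was at the floor in 1 resting sample, so its changes against resting cells may be understated. Orc1 stood at 6.55, 5.44 and 5.00 in the 3 resting samples and at 6.18, 7.51 and 6.81 in the 3 activated ones, and ran from 6.83 through a median of 8.50 to 9.68 in the 9 lymphomas. The lymphomas were called higher than resting cells, by 2.72 ± 0.55 (adjusted p = 0.00541). Against activated cells the difference of 1.55 ± 0.54 missed the threshold (adjusted p = 0.0566), and the activated against resting difference was 1.17 ± 0.50 (adjusted p = 0.124), with an interval from -0.03 to 2.36. Cdt1, the loader that Gmnn binds, did not pass on activation, at 0.12 ± 0.10 (adjusted p = 0.397). In lymphomas it was 0.99 ± 0.31 above resting cells (adjusted p = 0.0406), just under 2-fold, so it was not called.

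Of the 6 subunits of the MCM ring, 2 were called higher on activation. Mcm3 rose 2.14-fold (adjusted p = 0.00267) and Mcm5 by 1.16 ± 0.17 (adjusted p = 0.00391); the changes of Mcm2, Mcm4, Mcm6 and Mcm7 lay between 0.52 and 0.80, below 2-fold. Mcm5 stood at 10.33, 10.63 and 10.65 in the 3 resting samples and at 11.49, 11.55 and 12.03 in the 3 activated ones, and ran from 10.57 through a median of 12.49 to 13.10 in the 9 lymphomas. All activated samples lay above the resting ones, and the lowest lymphoma lay within the resting range. In lymphomas against resting cells 5 of 6 subunits were called, with changes from 1.17 (Mcm2) to 1.65 (Mcm5, adjusted p = 0.0243), and Mcm7, at 0.93 ± 0.23 (adjusted p = 0.0163), was under 2-fold. None was called between lymphomas and activated cells, where changes were 0.33 to 0.71. The lymphoma calls of Mcm2 to Mcm6 were lost without any one of the resting samples. They were also lost when probe sets that can match several transcripts were left out and others stood for these genes, with changes of 0.69 (Mcm2) to 1.45 (Mcm5) and adjusted p of 0.0561 to 0.396.

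Of the 5 factors that activate the loaded ring, 4 were called higher on activation and the same number in lymphomas against resting cells. Mcm10, which binds the ring as it is activated, rose by 2.28 ± 0.16 (adjusted p = 0.000294) on activation and by 2.60 ± 0.43 (adjusted p = 0.00157) in lymphomas against resting cells. Cdc45 rose by 1.74 ± 0.22 (adjusted p = 0.00225) and 2.40 ± 0.48 (adjusted p = 0.00475). Of the GINS subunits, Gins1 rose by 1.91 ± 0.39 and 2.95 ± 0.50, and Gins2 by 1.81 ± 0.25 and 2.72 ± 0.38 (adjusted p = 0.0128 and 0.00171 for Gins1, 0.00301 and 0.000579 for Gins2). Gins3 belongs to the same complex and passed in none of the comparisons. Gins3 stood at 7.97, 7.91 and 8.27 in the 3 resting samples and at 8.10, 8.67 and 8.51 in the 3 activated ones, and ran from 8.05 through a median of 8.53 to 9.43 in the 9 lymphomas. The 3 groups overlap for Gins3, and its changes were 0.38 ± 0.22 on activation and 0.57 ± 0.32 in lymphomas against resting cells (adjusted p = 0.241 and 0.233).

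Among primase and the polymerases, Pole, the catalytic subunit of the leading strand polymerase epsilon, had the largest changes against resting cells. Pole stood at 7.62, 7.80 and 6.72 in the 3 resting samples and at 10.20, 10.46 and 10.52 in the 3 activated ones, and ran from 9.57 through a median of 10.82 to 11.57 in the 9 lymphomas. All activated and lymphoma samples were above all resting ones. Pole rose by 3.01 ± 0.30 (adjusted p = 0.00104) on activation and by 3.32 ± 0.40 (adjusted p = 0.000236) in lymphomas against resting cells, while the lymphoma and activated means differed by 0.31 ± 0.37 (adjusted p = 0.57). Its partner subunit Pole2 was at -0.06 ± 0.10 (adjusted p = 0.69) and 0.22 ± 0.43 (adjusted p = 0.75). Pola1, the catalytic subunit of polymerase alpha, rose by 1.79 ± 0.34 and 2.54 ± 0.51 (adjusted p = 0.00998 and 0.00535), and its accessory subunit Pola2 was at 0.70 ± 0.22 and 0.86 ± 0.26, below 2-fold. The other probe set of Pola1 gave -0.13 and 0.65, neither called, and with the mean of both the activation call was lost (0.83, adjusted p = 0.0668).

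The primase subunits Prim1 and Prim2 make the RNA primers. Prim2 rose by 1.37 ± 0.11 (adjusted p = 0.000529) on activation and by 2.33 ± 0.26 (adjusted p = 0.000165) in lymphomas against resting cells. Prim2 stood at 8.78, 9.00 and 8.87 in the 3 resting samples and at 10.21, 10.28 and 10.26 in the 3 activated ones, and ran from 10.61 through a median of 11.34 to 11.86 in the 9 lymphomas. For Prim2 the 3 groups did not overlap; lymphomas were 0.96 ± 0.25 above activated cells (adjusted p = 0.0175), just short of 2-fold. Of the other 2 probe sets of Prim2, 1 gave 1.30 on activation and was called and 1 gave -0.13; the mean of probe sets gave 0.85, under 2-fold. Prim1 was called in lymphomas against resting cells, at 1.55 ± 0.42 (adjusted p = 0.0239), and its 0.61 ± 0.12 on activation was under 2-fold. Its other probe set gave 1.09 ± 0.13 on activation and was called (limma's adjusted p = 0.00222 in a fit over probe sets). Pold1, the catalytic subunit of polymerase delta, was at 0.47 ± 0.17 and 0.65 ± 0.23 and was not called. Another of its probe sets gave 1.60 ± 0.26 in lymphomas against resting cells (limma's adjusted p = 0.00128 in a fit over probe sets). That probe set gave 1.24 ± 0.26 against activated cells (adjusted p = 0.00526 in the same fit) and was called in both.

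Pcna, the clamp that tethers the polymerases and is widely used as a proliferation marker, did not pass in any comparison. Pcna stood at 13.38, 13.13 and 13.59 in the 3 resting samples and at 13.30, 13.24 and 13.37 in the 3 activated ones, and ran from 12.53 through a median of 13.85 to 14.32 in the 9 lymphomas. All activated samples lay within the resting range, and lymphomas lay on both sides of it. The change was -0.06 ± 0.13 on activation (interval -0.37 to 0.24, adjusted p = 0.75) and 0.29 ± 0.37 in lymphomas against resting cells (interval -0.51 to 1.09, adjusted p = 0.619). Whether this probe set follows large increases at so bright a signal was not tested.

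The loader subunits Rfc2, Rfc3, Rfc4 and Rfc5, which open the clamp and close it around DNA, were under 2-fold on activation, at 0.38 to 0.88, and all 4 were called in lymphomas against resting cells. Rfc3 stood at 8.04, 7.60 and 8.10 in the 3 resting samples and at 8.16, 8.71 and 8.44 in the 3 activated ones, and ran from 9.39 through a median of 10.79 to 11.57 in the 9 lymphomas. Every lymphoma lay above all 6 normal samples. Lymphomas exceeded resting cells by 2.72 ± 0.43 (adjusted p = 0.00113) and activated cells by 2.19 ± 0.43 (adjusted p = 0.00422), 4.58-fold. Rfc2 was higher in lymphomas by 1.43 ± 0.28 and 1.06 ± 0.27 against the same groups (adjusted p = 0.00388 and 0.0169). Rfc4 and Rfc5 exceeded resting cells by 2.09 ± 0.49 and 2.15 ± 0.44 (adjusted p = 0.0119 and 0.00572), while against activated cells their 1.31 ± 0.48 and 1.27 ± 0.43 missed the threshold (adjusted p = 0.0707 and 0.053). The call of Rfc4 was lost with another probe set, not marked as matching several transcripts, at 1.57 (adjusted p = 0.0552).

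The RPA proteins coat single-stranded DNA at the fork and also serve repair outside S phase. Rpa1, the large subunit, had the smallest change of any member in lymphomas against resting cells. Rpa1 stood at 14.24, 14.17 and 13.99 in the 3 resting samples and at 14.08, 14.02 and 13.94 in the 3 activated ones, and ran from 13.21 through a median of 14.37 to 14.77 in the 9 lymphomas. The ranges overlap, and the differences were -0.12 ± 0.10 on activation and 0.04 ± 0.31 in lymphomas against resting cells (interval -0.62 to 0.70, adjusted p = 0.947). The sign of the last value turned in several alternatives and carries no direction. Rpa2, the middle subunit, was 0.61 ± 0.10 above resting cells after activation (adjusted p = 0.00583, under 2-fold) and was called in lymphomas at 1.69 ± 0.43 (adjusted p = 0.0169).

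Fen1, which cuts the flap ahead of each Okazaki fragment, and Lig1, the ligase that joins the fragments, act one after the other. Lig1 rose by 1.69 ± 0.19 (adjusted p = 0.00138) on activation and by 2.06 ± 0.46 (adjusted p = 0.00947) in lymphomas against resting cells, and its 0.37 ± 0.46 between lymphomas and activated cells did not pass (adjusted p = 0.59). Fen1 stood at 11.72, 11.02 and 11.60 in the 3 resting samples and at 11.80, 11.77 and 11.92 in the 3 activated ones, and ran from 11.97 through a median of 12.99 to 13.51 in the 9 lymphomas. Every lymphoma lay above all 6 normal samples, by a small margin at its lowest. Fen1 was 0.38 ± 0.19 on activation (adjusted p = 0.165), and lymphomas exceeded resting cells by 1.44 ± 0.32 (adjusted p = 0.00862) and activated cells by 1.06 ± 0.30 (adjusted p = 0.0258). This Fen1 probe set can match several transcripts. Another was also called against resting cells, at 1.32 (adjusted p = 0.00967 in the fit over probe sets), and was not called against activated cells, at 0.62.

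Ung, the uracil DNA glycosylase that removes uracil from DNA, was the member with the largest negative difference on activation. Ung stood at 10.76, 10.77 and 11.10 in the 3 resting samples and at 9.49, 10.22 and 9.99 in the 3 activated ones, and ran from 11.14 through a median of 11.89 to 13.56 in the 9 lymphomas. All activated samples lay below all resting samples, and all lymphomas lay above both. The activated against resting difference was -0.98 ± 0.20 (adjusted p = 0.0135), just under 2-fold, so it was not called; with quantile normalisation it passed both conditions. Lymphomas exceeded activated cells by 2.36 ± 0.48 (adjusted p = 0.00543), 5.12-fold, and resting cells by 1.38 ± 0.47, which missed the threshold (adjusted p = 0.0594).

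Of the 5 genes of nucleotide supply, 3 were called higher on activation and 5 in lymphomas against resting cells, Tyms among them with the limits given under it. Tk1, the cytosolic thymidine kinase of S phase, had the largest change of any member in both comparisons with resting cells. Tk1 stood at 6.16, 7.01 and 6.63 in the 3 resting samples and at 9.49, 9.66 and 9.83 in the 3 activated ones, and ran from 9.17 through a median of 11.05 to 11.77 in the 9 lymphomas. Every activated and every lymphoma sample was above every resting one. Tk1 rose by 3.06 ± 0.26 (adjusted p = 0.000592), 8.34-fold, on activation and by 4.21 ± 0.49 (adjusted p = 0.000196), 18.5-fold, in lymphomas against resting cells; lymphomas and activated cells differed by 1.15 ± 0.47 (adjusted p = 0.101).

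Ribonucleotide reductase makes the deoxynucleotides, with Rrm1 as the large and Rrm2 as the small, cycle-regulated subunit. Rrm2 stood at 9.15, 9.32 and 9.07 in the 3 resting samples and at 11.89, 11.62 and 11.94 in the 3 activated ones, and ran from 10.93 through a median of 12.34 to 13.38 in the 9 lymphomas. Resting samples lay below all others. Rrm2 rose by 2.64 ± 0.12 (adjusted p = 9.6e-05), 6.23-fold, on activation and by 3.24 ± 0.46 (adjusted p = 0.000579), 9.46-fold, in lymphomas against resting cells, and Rrm1 by 1.63 ± 0.14 and 2.17 ± 0.41 (adjusted p = 0.000636 and 0.00356). Dut, which keeps dUTP out of DNA by hydrolysing it, was 0.51 ± 0.17 on activation (adjusted p = 0.0628) and was called in lymphomas at 1.44 ± 0.37 (adjusted p = 0.0185). Its other probe set gave 0.18 in lymphomas (adjusted p = 0.843 in the fit over probe sets), and the mean of both gave 0.81 (adjusted p = 0.215), which ended the call.

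Tyms, the thymidylate synthase, was read close to the floor. Tyms stood at 5.00, 5.33 and 5.21 in the 3 resting samples and at 5.00, 5.96 and 6.62 in the 3 activated ones, and ran from 5.30 through a median of 6.27 to 7.08 in the 9 lymphomas. Its groups overlap, and 1 resting and 1 activated sample sat at the floor. Lymphomas were called higher than resting cells at 1.15 ± 0.37 (adjusted p = 0.0458), but the call was lost in 17 of 28 alternatives. Chaf1b, the middle subunit of the factor that places new histones behind the fork, was at 0.68 ± 0.19 on activation (adjusted p = 0.039, under 2-fold) and was called in lymphomas at 1.33 ± 0.31 (adjusted p = 0.0118). With the mean of its probe sets this fell to 0.069 (adjusted p = 0.849), so the Chaf1b call rests on the brightest probe set. No other Chaf1b probe set passed the signal filter, and that mean takes in those that failed it.

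**Figure D3:**
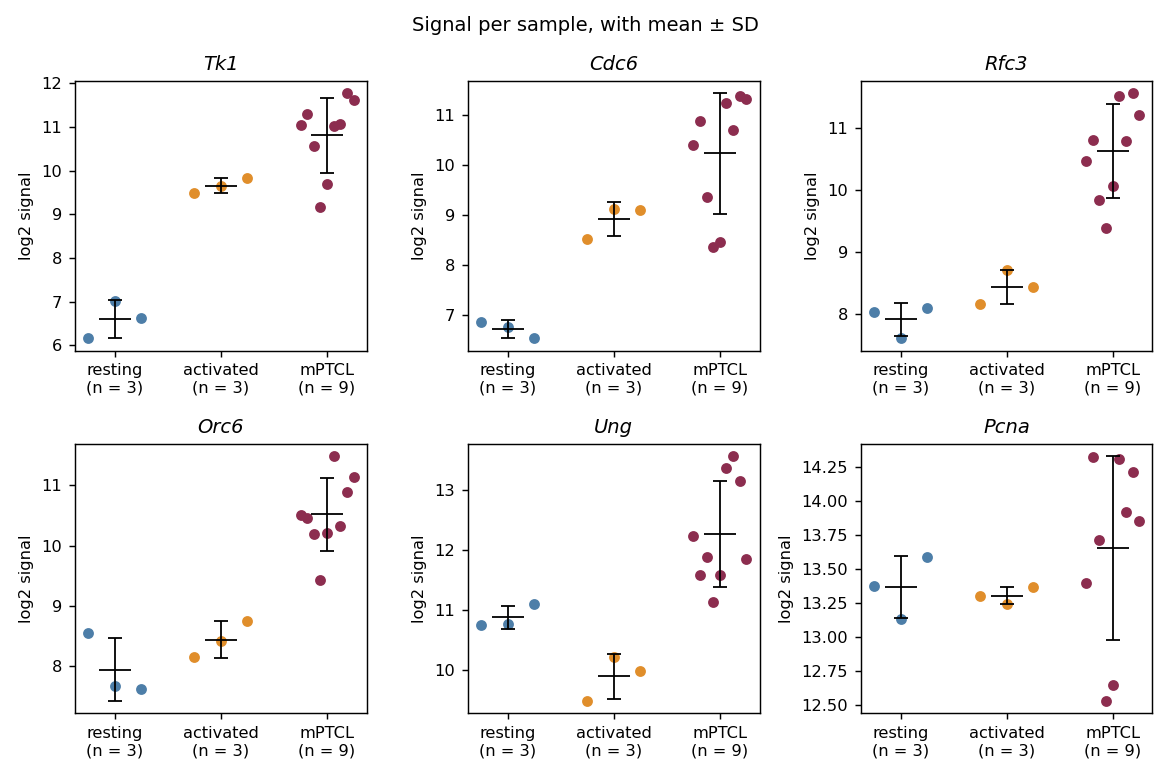
Log2 signal of Tk1, Cdc6, Rfc3, Orc6, Ung and Pcna in each of the 15 samples (points, by group), with the group mean and SD. Tk1 and Cdc6 are above the resting samples in every activated and lymphoma sample, Ung is lowest in activated cells, and Pcna overlaps across the groups.

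Other replication genes, outside the 40, were tested as a second list. Of 39 such genes tested, 12 were called higher and 2 lower on activation. In lymphomas 16 were called higher and 1 lower against resting cells, and 7 higher and 1 lower against activated cells. The shares called higher were 30.8%, 41.0% and 17.9% in that order. Of all genes, 8.45%, 7.03% and 7.04% were called higher, and 4.23%, 6.84% and 8.28% lower. The median changes of the list were 0.43, 0.83 and 0.50. Ticrr, which helps to fire origins, was at the floor in all 3 resting samples and rose at least 12.4-fold on activation and at least 9.31-fold in lymphomas. Uhrf1, which carries DNA methylation over to the new strand, rose by 2.88 and 3.39, and Clspn, a fork checkpoint mediator, by 2.86 and 3.22. Pole4, a small polymerase epsilon subunit, fell by 1.58 on activation. Donson, a replication fork factor, fell by 1.71 and 1.51 in lymphomas against resting and activated cells. The largest calls between lymphomas and activated cells were Nasp, a histone chaperone, at 1.58, Pole3, another polymerase epsilon subunit, at 1.57, and Asf1a, also a histone chaperone, at 1.43. Every gene named here was called in the comparison its value stands for. Without activated replicate 3 the activation count fell from 12 to 7, where 7.01% of all genes were called higher. Without any one array the count between lymphomas and activated cells ran from 2 to 12. It was 2 without activated replicate 1 (4.02% of all genes) and 12 without mPTCL 4 (8.14%).

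Genes of G2 and M phase, a list of spindle, kinetochore and mitotic kinase genes, give the other end of the cycle. All 19 G2 and M genes tested were called higher both on activation (median change 4.03) and in lymphomas against resting cells (3.40). Between lymphomas and activated cells 0 of 19 were called, 0 had an unadjusted p under 0.05, and the median change was -0.43, with 4 of 19 above 0; over the members it was 0.71, with all 39 above 0. Mki67, the gene of the proliferation marker Ki-67, rose by 4.17 ± 0.20 on activation and 3.54 ± 0.40 in lymphomas against resting cells.

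Both lists can be set side by side in each sample. The median member lay 0.58, 0.92 and 0.84 above its resting mean in the 3 activated samples, and 0.53 (mPTCL 4) to 2.53 (mPTCL 8) above it in lymphomas. The median G2 and M gene lay 3.84, 3.97 and 4.02 above in activated samples and 1.65 (mPTCL 4) to 4.55 (mPTCL 2) in lymphomas. The gap between both medians was 3.06 to 3.26 in activated samples and 0.79 (mPTCL 7) to 2.56 (mPTCL 2) in lymphomas, with no overlap. This gap was chosen after the values were seen, and it is given as a description without a test.

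**Figure D4:**
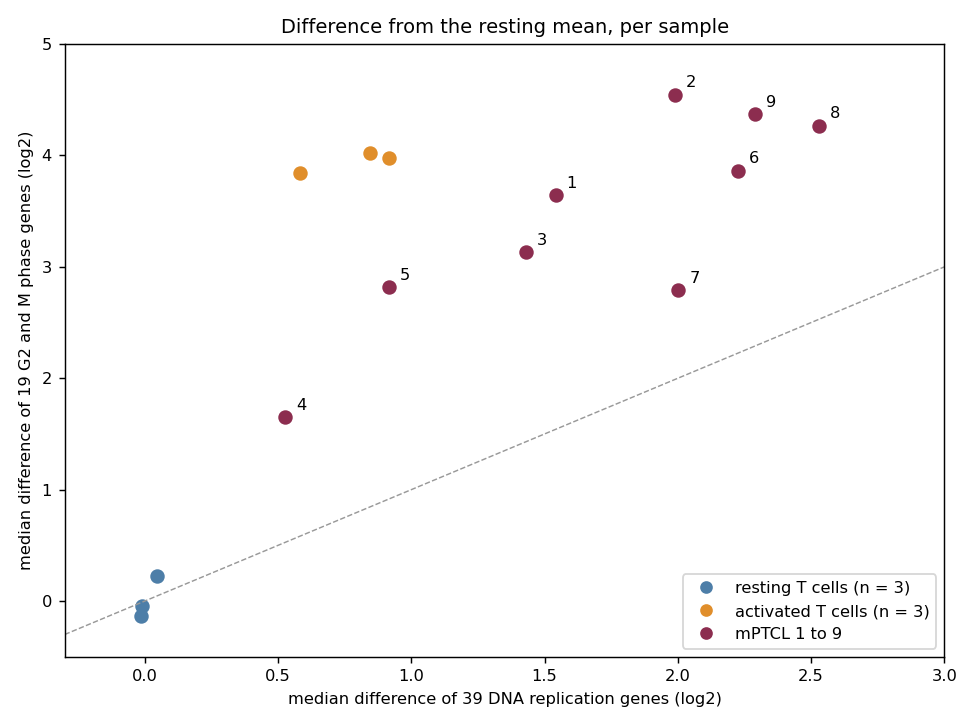
Median difference from the resting mean, on the log2 scale, of the 39 replication members (x axis) and of 19 G2 and M genes (y axis), 1 point per sample. The 3 activated samples lie high on the y axis at member medians under 1, and the lymphomas reach further right, with mPTCL 4 lowest on both axes.

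Lymphomas differed from each other in a way shared by most members. mPTCL 8 was the highest of the 9 in 22 of 39 members and among the top 3 in 34, while it was highest in 9.44% of all genes tested and in the top 3 in 30.6%. mPTCL 9 and mPTCL 6 were among the top 3 in 29 and 27 members, against 33.8% and 30.3% of all genes. mPTCL 4 was lowest in 32 members and among the bottom 2 in 37, against 10.7% and 23.3% of all genes, and mPTCL 5 was among the bottom 2 in 28, against 27.0%. In mPTCL 4, 11 of 39 members exceeded their mean in activated cells, and in mPTCL 5, 19; in the other 7 lymphomas 35 to 39 did.

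The spread among lymphomas ran from a range of 0.89 for Pola2 to 3.02 for Cdc6. Cdc6 was 8.36 in mPTCL 4, 8.46 in mPTCL 5 and 11.38 in mPTCL 8; Ung was 11.14, 11.58 and 13.15 in the same 3. mPTCL 4 and mPTCL 5 also carried the highest neutrophil and macrophage marker means, and mPTCL 4 the lowest T cell marker mean (8.58), while mPTCL 8 carried neutrophil (10.74), hepatocyte (8.27) and erythroid (8.28) markers. With mPTCL 1, 4 and 5 left out for their macrophage markers, 21 members were called higher in lymphomas than in activated cells and 33 higher than in resting cells, where 9.91% and 9.14% of all genes were called higher. With the 6 lymphomas high in neutrophil markers left out, 12 were called against activated and 31 against resting cells (7.92% and 6.40% of all genes), and with the 3 high in erythroid markers left out, 6 and 29 (7.57% and 7.18%). The part of other cells in these differences was not tested beyond that.

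Several members are read by more than 1 probe set, and these did not always give the same answer. In a fit over probe sets, 75 probe sets of members were tested. Of these, 26 were called higher on activation, 48 in lymphomas against resting cells and 12 in lymphomas against activated cells. The share of all probe sets called in that fit was not counted, so these counts have no background. Of the 26 members with several probe sets, all probe sets had the same sign in 22, 23 and 18 members in that order, and the same call in 21, 13 and 22. The 2 probe sets of Pold1 gave 0.65 ± 0.23 and 1.60 ± 0.26 in lymphomas against resting cells, and those of Cdc45 2.40 ± 0.47 and -0.11 ± 0.56. For Mcm7, 1 of 4 probe sets was called there, at 1.74 ± 0.36, and the others gave 0.80 to 0.93. For Mcm3, 1 of 5 was called in lymphomas against activated cells, at 1.85 ± 0.33 (adjusted p = 0.00223). With the mean of probe sets, calls were also lost for Mcm3 on activation (0.84), for Mcm2, Mcm6 and Rpa2 in lymphomas against resting cells (0.93, 0.45 and 1.38), and for Fen1 in lymphomas against activated cells (0.84). The mean was taken over all probe sets of a gene, including any that failed the signal filter. For Mcm6 it lies below both probe sets that passed, at 1.52 and 0.77. For members with several probe sets a call is that of the probe set used.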

How the data were processed

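Expression was measured on 1 Affymetrix oligonucleotide array per sample, in 3 resting, 3 activated and 9 lymphoma samples. What the authors deposited is linear intensity from MAS5 in Affymetrix Expression Console, per the submitters' processing notes, which state version 1.1 for lymphomas only. Normal RNA was amplified by 3′ in vitro transcription, per the labels' protocols; for lymphomas no kit is named. The 2% trimmed mean was 500 on every array, as tested on the values. MAS5 detection calls were not used, and the number of arrays limits the precision.

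Of 45101 probe sets, 34958 had 1 gene symbol and 932 several. For 34754 probe sets with 1 symbol, the gene identifier was found in RefSeq and the symbol was read from there, whether or not it differed. Signals under 32 were set to 32 before log2. Each gene took its brightest probe set by mean over all arrays. A minimum of 100 in 3 or more arrays left 11902 genes, which were fitted with limma 3.58.1 in R 4.3.3 (lmFit, eBayes with trend) on the arrays of the 2 groups compared. A call needs both a change of 2-fold or more and a p, adjusted by the Benjamini-Hochberg method over all genes, under 0.05. Standard errors are limma's moderated ones. The scripts were tested on simulated data. Members and gene lists were chosen with earlier results of these data known. Genes outside the members were named by rule: up to 4 called genes per list and comparison, ranked by size of change and with no more than 3 in 1 direction, and Mki67. Promoter windows were searched on both strands. The deleted p53 gene is not analysed here.

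Alternatives changed the floor (16 or 64), added a pseudocount of 16, dropped the filter or raised it to 200, normalised by quantiles, centred on medians, averaged probe sets, dropped probe sets with several target transcripts, fitted all 15 arrays together, dropped the trend or the fold condition, added array weights or a replicate block, and left out each array. Fits over probe sets, and fits without lymphomas high in neutrophil, macrophage, B cell or erythroid markers, were chosen after seeing the data.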

Additional observations from a re-analysis of the deposited data

How the results depend on the processing

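Of the 39 members, 15 were called higher on activation, where 8.45% of all genes were called higher. The count became 6 with all 15 arrays in 1 fit (2.48% of all genes), where the lymphomas' larger spread enters. By the adjusted p alone it became 23 (15.4%), and leaving out 1 array gave 13 to 16 (7.01% to 8.41%). The count called lower (0) became 1, Ung, with quantile normalisation and by the adjusted p alone, and 0 to 1 without 1 array. Of all genes, 5.43% were called lower with quantile normalisation, 15.5% by the adjusted p alone and 3.64% to 4.36% without 1 array. Other replication genes called higher on activation (12) became 7 with all 15 arrays (2.48% of all genes), and 7 to 10 without 1 array (7.01% to 8.41%). In lymphomas against resting cells, leaving out 1 array gave 19 to 33 members (30) and 13 to 17 other replication genes (16). Of all genes, 3.78% to 7.91% were called higher in those fits, against 7.03% with all arrays of both groups. In lymphomas against activated cells, 5 members were called higher, against 7.04% of all genes. The count became 8 with all 15 arrays (8.05% of all genes), 12 with array weights (10.9%) and 8 with the replicate block (5.13%). It was 12 without 6 lymphomas high in neutrophil markers (7.92%) and 8 without 2 high in B cell markers (8.02%). Without 3 lymphomas high in macrophage markers it was 21 (9.91%), and leaving out 1 array gave 3 to 13 (3.89% to 8.39%). The setting without 3 lymphomas high in macrophage markers also gave 1 G2 and M gene (0) and 17 other replication genes (7). The latter ran from 2 to 12 without 1 array. The cause of these moves was not tested. The members' median level moved from 9.44 to 8.54 with the mean of probe sets and to 9.19 without probe sets matching several transcripts in resting cells, from 10.26 to 9.59 and 10.20 in activated cells, and from 11.17 to 10.41 with the mean in lymphomas. Signs turned for small changes. On activation they turned for Pole2 (-0.12 to 0.016 when 1 array was left out, positive without resting replicate 1) and Pcna (-0.18 to 0.049, positive without resting replicate 3). In lymphomas against resting cells Rpa1 turned (-0.073 with the mean of probe sets, -0.038 to 0.16 when 1 array was left out, negative without resting replicate 3 or mPTCL 2, 6, 8 or 9, and -0.0057 without 3 lymphomas high in erythroid markers). Against activated cells Cdc45, Gins3 and Pola2 turned with the mean of probe sets (-0.20, -0.054 and -0.27), as did Rrm2 without probe sets matching several transcripts (-0.10). The labels number replicates 1 to 3 in each normal group. For same-numbered samples, deviations from the group means correlated at only -0.01 to 0.05, so the numbers were not taken as pairs. The replicate block changed no member's call on activation. Against resting cells Chaf1b, Mcm4 and Tyms lost theirs, and against activated cells Rfc4, Rfc5 and Tk1 gained one. In both lymphoma comparisons the block matched lymphomas to normal samples by number alone. Lymphomas numbered above 3 had no match and did not enter the change. The counts and calls of that setting there rest on mPTCL 1 to 3, with no true pairs.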
